A study of Mus musculus with 11 samples.

Results

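The 10 genes described here encode parts of the elastic fibre and the enzymes that crosslink it: Eln, Fbn1, Mfap4, Mfap5, Fbln1, Fbln2, Fbln5, Emilin1, Lox and Loxl1. They were chosen by symbol among the 28692 genes of the deposited tables, and each of the 10 symbols named 1 protein-coding gene. They were followed through the stromal, endothelial and tubular cells of mouse kidneys, of which 40582 cells were kept. Mice were male C57Bl/6, operated at the age of 10 weeks. UIR kidneys (3 libraries) were taken 28 days after the left renal pedicle had been clamped for 30 min, a unilateral ischemia-reperfusion injury with the other kidney left in place. UUO kidneys (3 libraries) were taken 28 days after the left ureter had been tied off for good, a unilateral ureteral obstruction. Kidneys of naive mice of the same strain, sex and age (5 libraries) served as control. Whether their age was matched at surgery or at harvest is not stated. No gene was deleted in any group, operated mice received isoflurane and buprenorphine for the surgery, and all kidneys were dissociated with a cold active protease. Below, control 1 to 5 are the libraries labelled Ctrl, N1, N2, AN1 and AN2, UIR 1 to 3 are those labelled UIR, UIR1 and UIR2, and UUO 1 to 3 are those labelled UUO, UUO1 and UUO2.

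An elastic fibre is a core of crosslinked elastin laid down on a scaffold of microfibrils. Elastin (Eln) is secreted as soluble tropoelastin. Fibrillin-1 (Fbn1) forms the microfibrils, which carry the associated glycoproteins Mfap4 and Mfap5. The fibulins (Fbln1, Fbln2, Fbln5) and Emilin1 sit at the surface of the core or between core and microfibril, and fibulin-5 helps to place tropoelastin and the crosslinking enzymes on the scaffold. Lysyl oxidase (Lox) and its relative Loxl1 oxidise lysines of elastin and of fibrillar collagens, after which the chains bind each other covalently. In the normal kidney elastic fibres are found mainly in the walls of arteries, and in scarred kidneys they are also deposited in the interstitium.

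The fibulins Fbln1 and Fbln5 differed in the cells that held them after injury, Fbln1 nearly always in fibroblasts of the Fibro 1 class and Fbln5 also in arterial endothelium. The 250 bases before the most upstream RefSeq start of each are shown for comparison (GRCm38.p6, written 5′ to 3′ on the gene's strand). The Fbln5 window is chr12:101819120-101819369 on the minus strand and the Fbln1 window chr15:85205699-85205948 on the plus strand, and neither overlaps an annotated exon. Capitals mark matches to the GC box, searched as GGGCGG and its reverse complement CCGCCC.
Fbln5: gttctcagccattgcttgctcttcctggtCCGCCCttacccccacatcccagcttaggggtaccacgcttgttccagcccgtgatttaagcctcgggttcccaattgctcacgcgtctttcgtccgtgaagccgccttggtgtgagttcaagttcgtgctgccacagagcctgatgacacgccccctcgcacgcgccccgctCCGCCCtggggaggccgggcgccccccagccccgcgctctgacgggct
Fbln1: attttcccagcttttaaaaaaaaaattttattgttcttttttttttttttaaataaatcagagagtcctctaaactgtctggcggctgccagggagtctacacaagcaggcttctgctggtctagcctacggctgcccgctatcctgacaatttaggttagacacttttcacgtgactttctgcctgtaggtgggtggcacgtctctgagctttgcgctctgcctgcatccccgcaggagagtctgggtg
The Fbln5 window had a GC content of 65.2% and held 2 GC boxes, while the Fbln1 window had a GC content of 46.4% and held 0. The windows before a more downstream start of each gene, not shown, went the other way. There Fbln5 had a GC content of 49.6% and 0 GC boxes, and Fbln1 62.4% and 1. The contrast between the genes therefore depends on the start chosen. Among 32851 RefSeq windows of this length, 32.7% held a GC box. A match is a stretch of letters and not a measured binding site.

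On the mouse build GRCm38 (GENCODE vM21) the genes are scattered over the genome. Eln (ENSMUSG00000029675) spans chr5:134702593-134747323 and Emilin1 (ENSMUSG00000029163) chr5:30913402-30921277. Fbn1 (ENSMUSG00000027204) lies at chr2:125300594-125507993. Mfap4 (ENSMUSG00000042436) lies at chr11:61485431-61488900, and Mfap5 (ENSMUSG00000030116) at chr6:122505845-122529290, on the chromosome that also holds Fbln2 (ENSMUSG00000064080, chr6:91212455-91272540). Fbln1 (ENSMUSG00000006369) is at chr15:85205949-85286535 and Fbln5 (ENSMUSG00000021186) at chr12:101746565-101819055. The crosslinking enzymes are at chr18:52516067-52529867 for Lox (ENSMUSG00000024529) and chr9:58287738-58313186 for Loxl1 (ENSMUSG00000032334).

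Library sizes ran from 49503312 to 117043590 UMIs. A UMI tags 1 captured RNA molecule at its 3′ end, and levels below are counts per 1000000 UMIs of the cells in question (CPM). Kept cells numbered 10273 in control, 16942 in UIR and 13367 in UUO. The share of called barcodes left out because over 30% of their UMIs were mitochondrial was 56.9–78.8% in control, 23.9–37.3% in UIR and 3.16–7.95% in UUO libraries. Control 1 stood apart from the other controls, and controls held few stromal cells, so the results that rest on these are given with their counts. Of 40374 distinct barcodes, 207 occurred in more than 1 library.

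Taken over all kept cells, most of the 10 genes were higher after either injury, with larger differences after UUO. Eln, the elastin core, was measured at 12.6, 18.9, 7.74, 8.14 and 11.7 CPM in controls 1 to 5, at 20.9, 24.0 and 23.4 CPM in UIR 1 to 3 and at 45.5, 32.6 and 30.8 CPM in UUO 1 to 3. Fbn1, the microfibril backbone, went from 1.67–3.30 CPM in control to 16.0, 22.9 and 25.1 CPM in UIR and 29.3, 22.0 and 26.0 CPM in UUO. The 3 groups did not overlap for Eln, and for Fbn1 both injuries lay far above every control. Loxl1 was between 0.152 and 1.53 CPM in control, against 14.6, 18.7 and 22.0 CPM in UIR and 28.5, 17.3 and 16.0 CPM in UUO. Lox was between 0.0760 and 1.52 CPM in control, against 5.92, 6.25 and 7.01 CPM in UIR and 16.2, 9.65 and 19.8 CPM in UUO. Thus every injured library lay above every control for both crosslinking enzymes. In such sums more cells of a type and more RNA per cell cannot be told apart. Stromal cells made up 0.0507–1.83% of kept cells in control, 4.03–4.71% in UIR and 4.07–7.63% in UUO libraries. Endothelial cells made up 5.68–7.48%, 8.03–13.0% and 13.4–16.7%. All 10 genes had higher values in every UUO library than in every control, and 9 of 10 in every UIR library. The exception was Fbln2, whose UIR and control values overlapped. The share of all genes separated in this way was not counted, so these numbers have no background. The test below called 71.1% of all genes in UUO and 60.8% in UIR, in either direction.

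**Figure D1:**
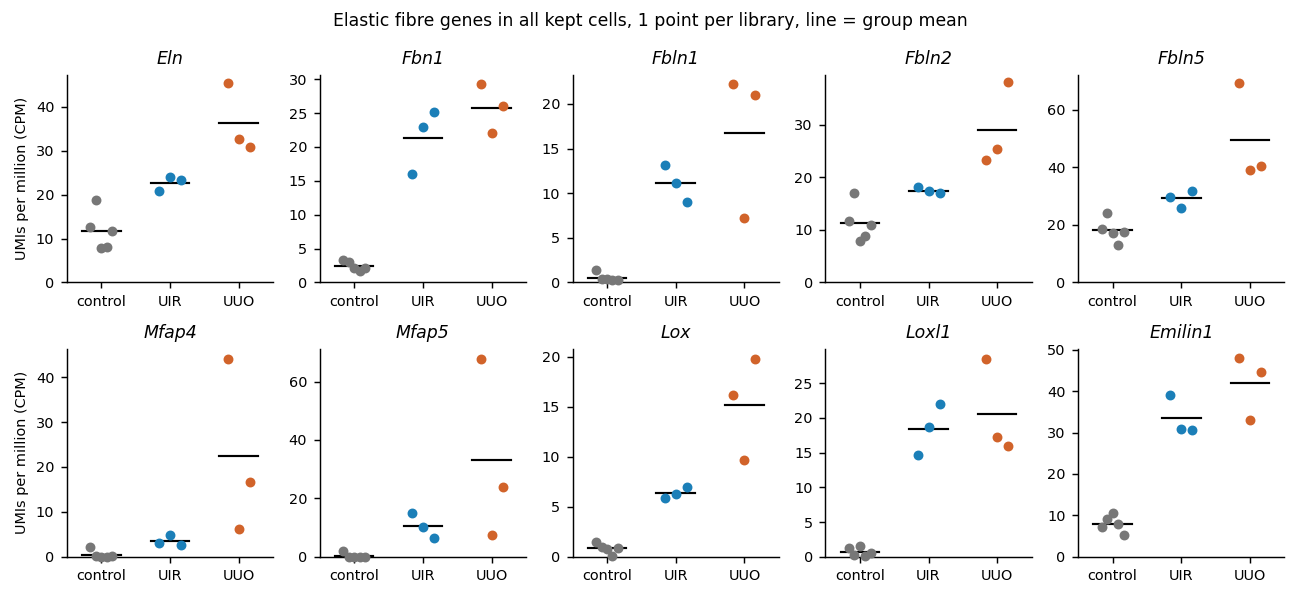
Level of each of the 10 genes over all kept cells, in CPM, with 1 point per library and a bar at the group mean, for control, UIR and UUO. Fbn1 averages 2.46 CPM in control, 21.3 CPM in UIR and 25.8 CPM in UUO, and Fbln2 has the least separated groups, at 11.3, 17.5 and 29.0 CPM.

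A gene was called where its adjusted p from edgeR's quasi-likelihood test, corrected by the Benjamini-Hochberg procedure for the 16075 genes tested, was below 0.05. After UIR 8 of 10 genes rose, where 60.8% of all genes were called and 32.9% were called higher. Log2 fold changes were 2.73 ± 0.19 for Fbn1 (SE, adjusted p = 4.5e-07), 1.70 ± 0.20 for Emilin1 (adjusted p = 1.2e-05) and 0.58 ± 0.23 for Eln (adjusted p = 0.046). Fbln2 (0.26 ± 0.21, adjusted p = 0.311) and Fbln5 (0.31 ± 0.20, adjusted p = 0.2) did not pass. After UUO all 10 rose, where 71.1% of genes were called and 38.2% called higher. Here the log2 fold changes were 2.92 ± 0.20 for Fbn1, 1.95 ± 0.20 for Emilin1, 1.17 ± 0.23 for Eln, 0.91 ± 0.21 for Fbln2 and 1.0 ± 0.20 for Fbln5, with adjusted p between 6.0e-08 and 0.00179. The median over the 10 genes was 2.39 in UIR and 3.30 in UUO, while the median over all genes was 0.05 and 0.08. Outside control 1, no control exceeded 0.0927 CPM for Mfap4 or 0.0760 CPM for Mfap5. Both therefore passed the filter on low counts only through the injured libraries. The counts of called genes and these medians are thus a description and not support. Both contrasts use the same control libraries. The scarce members depended on control 1, and leaving it out raised the log2 fold change of Mfap5 from 4.0 to 7.51 in UIR and from 5.58 to 9.10 in UUO, and that of Mfap4 from 2.27 to 5.97 and from 4.83 to 8.53. The Fbln1 values (3.88 in UIR and 4.39 in UUO) became 4.72 and 5.23 without it. Without UUO 1 the UUO values of Mfap5 and Mfap4 were 4.51 and 3.89. With a mitochondrial limit of 15%, which left 3691 control cells, the Eln difference was −0.44 in UIR (adjusted p = 0.223) and 0.00 in UUO (adjusted p = 0.991), and the UUO differences of Fbln2 and Fbln5 were −0.27 and −0.08. The Eln and Mfap4 calls in UIR were each lost, with the direction kept, in 12 of 22 alternatives, most of which left out 1 library.

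Between the injuries, 3 of 10 genes were higher in UUO than in UIR, where 22.7% of genes were called and 9.46% called higher. These were Mfap4 (log2 difference 2.56 ± 0.78, adjusted p = 0.0343), Fbln5 (0.69 ± 0.22, adjusted p = 0.0392) and Lox (1.17 ± 0.35, adjusted p = 0.0295). Mfap5 differed by 1.58 (adjusted p = 0.146) and Eln by 0.59 (adjusted p = 0.11), which did not pass. Without any one of UIR 1, UIR 2 or UIR 3 the count fell to 0, without UUO 1 or UUO 3 it fell to 1, and without control 2 it rose to 5.

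The genes fell into groups by the cells that held their UMIs, and these cells changed with injury. In control, 95.1% of Eln UMIs, 98.5% of Fbln2 UMIs, 91.6% of Fbln5 UMIs and 68.6% of Fbn1 UMIs were in endothelial cells. Emilin1 was spread over endothelium (52.7%), podocytes (16.1%) and Fibro 3 cells (13.3%), a stromal class with pericyte and mesangial markers. Control UMIs of Mfap4 (90.7%) and Mfap5 (83.8%) came from 3 Fibro 1 cells of control 1. After injury stroma held a large part of most genes. For Mfap4, Mfap5 and Fbln1, Fibro 1 alone held 94.8%, 97.1% and 93.4% of UMIs in UIR and 95.8%, 96.0% and 92.3% in UUO. Lox (65.9% and 85.3%), Emilin1 (66.4% and 53.2%) and Fbn1 (49.8% and 63.6%) also had most of their UMIs, or nearly so, in stroma. Endothelium kept the larger share of Fbln2 (71.2% in UIR and 62.6% in UUO) and Fbln5 (56.3% and 54.0%). Eln was split over stroma (24.7% and 35.9%), endothelium (25.4% and 34.5%) and a cluster left without a name (46.1% and 26.3%), and Loxl1 over stroma (38.0% and 55.8%) and that same cluster (47.1% and 31.4%).

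**Figure D2:**
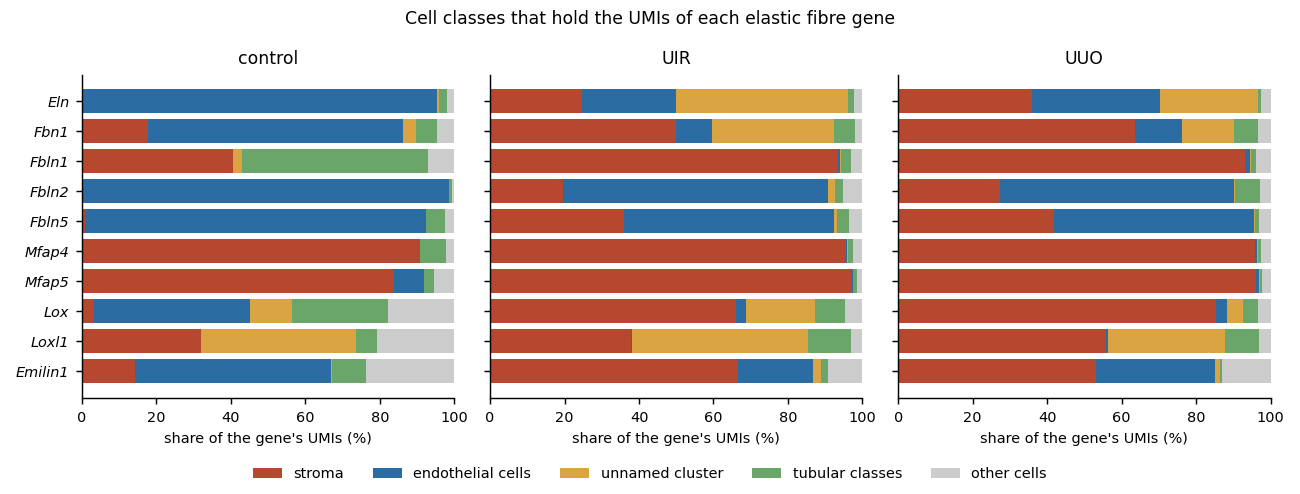
Stacked bars of the percentage of each gene's UMIs that lay in stroma, endothelium, the unnamed cluster, tubular cells and other cells, by group with libraries pooled. Endothelium takes 95.1% of Eln UMIs in control and 25.4% in UIR, while Fbln2 and Fbln5 remain mostly endothelial in every group.

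Stromal cells were taken as the sum of 3 classes named from marker genes. Fibro 1-like cells carried collagen and fibroblast markers (Col1a1, Dcn, Pdgfra), Fibro 2-like cells contractile markers (Acta2, Myh11, Cnn1) and Fibro 3-like cells pericyte and mesangial markers (Pdgfrb, Itga8, Gata3). Stromal pools held 23, 36 and 21 cells in controls 2 to 4, all of them Fibro 3, and 189–300 cells per UIR and 215–327 per UUO library, which mixed the 3 classes. Controls 1 and 5 had 4 and 1 stromal cells and were not used. The comparison of stroma with control is therefore also a comparison of a class mixture with Fibro 3.

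In the test against these 3 control pools all 10 genes were higher after UIR and after UUO, where 16.9% and 16.1% of 10394 genes were called and 11.1% and 10.7% were called higher. The median log2 fold change over all genes was 0.16 and 0.15. No such median is given for the 10, since 7 of them had no UMI in these pools. Those 7 passed the filter on low counts only through the injured pools, so the count of 10 is a description and not support. Fbn1 was at 37.8, 56.9 and 63.7 CPM in controls 2 to 4, at 181, 285 and 235 CPM in UIR and at 244, 324 and 355 CPM in UUO, which gave log2 fold changes of 2.28 ± 0.32 (adjusted p = 4.2e-05) and 2.61 ± 0.31 (adjusted p = 9.6e-06). Fbln5 was at 9.45, 28.5 and 23.9 CPM in control, at 178, 228 and 269 CPM in UIR and at 476, 360 and 218 CPM in UUO, with changes of 3.51 ± 0.45 (adjusted p = 1.9e-05) and 4.09 ± 0.43 (adjusted p = 2.7e-06). Emilin1 was at 180, 165 and 191 CPM in control, at 486, 491 and 457 CPM in UIR and at 369, 452 and 406 CPM in UUO, with changes of 1.59 ± 0.20 (adjusted p = 1.3e-05) and 1.31 ± 0.20 (adjusted p = 1.2e-04). These 3 genes were the members present in Fibro 3 at rest, and every injured library exceeded every control for each of them.

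The other 7 genes had 0 UMIs among the 407003 of these 3 control pools, which allows up to 7.37 CPM over the group. Such limits and the intervals below cover counting error only. The 5 stromal cells of controls 1 and 5, too few for a pool, did hold UMIs of 6 of the 7, so no lower bound of a fold is given for those 6, and the level over all 85 control stromal cells is given beside that over all injured stromal cells. Eln was at 82.1, 141 and 139 CPM in UIR and 291, 115 and 261 CPM in UUO (adjusted p = 1.91e-04 and 2.81e-05), and with every stromal cell counted it was at 6.98 CPM in control from 3 UMIs, 123 CPM in UIR and 237 CPM in UUO. Lox was at 84.9, 89.0 and 102 CPM in UIR and 171, 221 and 325 CPM in UUO, and with every cell counted at 4.65, 92.6 and 228 CPM, from 2 control UMIs. Loxl1 was at 140, 170 and 154 CPM in UIR and 219, 179 and 218 CPM in UUO, and with every cell counted at 39.5, 156 and 209 CPM. The control level of both enzymes thus came from cells outside the tested pools. Of the microfibril glycoproteins, Mfap5 was at 298, 223 and 134 CPM in UIR and 807, 199 and 415 CPM in UUO, and with every cell counted at 72.1, 212 and 539 CPM. Mfap4 was at 61.2, 105 and 56.5 CPM in UIR and 524, 165 and 295 CPM in UUO, but with every cell counted it was at 90.7 CPM in control, 75.4 CPM in UIR and 366 CPM in UUO. The called rise of Mfap4 in UIR therefore rests on leaving out control 1. Among UUO libraries UUO 1 had the highest values of both genes and UUO 2 the lowest. For the fibulins, Fbln1 was at 188–252 CPM in UIR and 191–368 CPM in UUO, and with every cell counted at 39.5, 223 and 269 CPM. Fbln2, with 0 UMIs in all 85 control cells, was at 75.1, 94.5 and 52.7 CPM in UIR and 80.4, 91.2 and 290 CPM in UUO, at least 10.0-fold and 19.5-fold higher than the limit of the 3 pools, and its UIR call (adjusted p = 0.00847) had an adjusted p of 0.0608 without control 3. The UUO bound uses a pooled level of 143 CPM, which lies above UUO 1 and UUO 2. Adjusted p of the calls not printed lay between 2.23e-07 and 0.00303. When cells were clustered more finely, control 1 reached 10 stromal cells, from 4, and entered the test, and 6 of 10 genes passed in each injury, while Mfap4 (−0.50 in UIR and 1.59 in UUO), Mfap5, Fbln1 and Loxl1 did not. The share of all genes called in that run is not given, so the count of 6 has no background.

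Within Fibro 3, the class that both control and injured kidneys held, few of the genes were present, and none passed the test between UUO and control. Fbn1 was at 37.8, 56.9 and 63.7 CPM in controls 2 to 4, at 68.6 CPM in UIR 1 and at 97.5, 142 and 113 CPM in UUO 1 to 3, a log2 difference of 1.0 ± 0.34 in UUO (adjusted p = 0.135). Every UUO library was above every control for Fbn1, but the test over 3 and 3 libraries did not call it. Fbln5 (0.61 ± 0.68, adjusted p = 0.748) and Emilin1 (−0.22 ± 0.24, adjusted p = 0.747) did not pass in UUO either. Of 3 genes tested, 0 were called by edgeR in UUO, with 1 at an unadjusted p under 0.05 and 0 by DESeq2, where 2.22% of genes were called. In UIR only 1 library had 10 Fibro 3 cells. A fit with that lone library, assumed to vary like the other groups, called 0 of 3 genes by edgeR against control (0 at an unadjusted p under 0.05, 0 by DESeq2, 0.193% of genes called) and 0 of 3 against UUO (0 and 0, 0.174% of genes called), which says nothing on whether UIR differed.

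**Figure D3:**
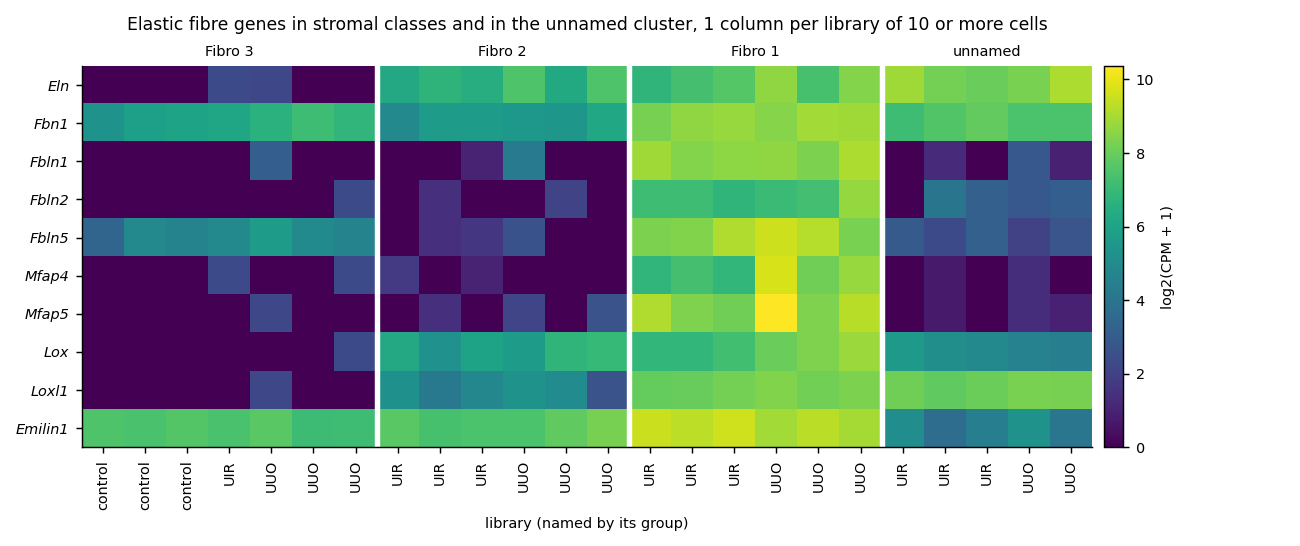
Heat map of log2(CPM + 1) of the 10 genes in each library's pool of Fibro 3, Fibro 2, Fibro 1 and unnamed-cluster cells. Fibro 1 carries all 10 genes in every injured library, whereas Fibro 3 is largely limited to Fbn1, Fbln5 and Emilin1, at 68.6, 28.2 and 165 CPM in UIR 1.

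Fibro 1 was the class with all 10 genes, and it was compared between injuries because control held only 3 such cells. Lox was at 117, 115 and 147 CPM in UIR and 258, 325 and 452 CPM in UUO, a log2 difference of 1.43 ± 0.22 (adjusted p = 0.00225). Mfap4 was at 112, 156 and 117 CPM in UIR and 857, 274 and 432 CPM in UUO, a difference of 1.99 ± 0.32 (adjusted p = 0.00252). These 2 of 10 genes were higher in UUO, where 1.76% of genes were called and 1.04% were called higher, and their libraries did not overlap. At an unadjusted p under 0.05 there were 6, of which Emilin1 was lower, and DESeq2 called 2. Without UUO 2 the count was 4. The median log2 difference over the 10 genes was 0.64, beside 0.01 over all genes. Eln was at 110, 159 and 198 CPM in UIR and 397, 160 and 347 CPM in UUO, and its difference of 0.94 ± 0.28 did not pass (adjusted p = 0.125), with UUO 2 inside the UIR range. Mfap5 was at 556, 329 and 279 CPM in UIR and 1318, 331 and 609 CPM in UUO (0.93 ± 0.37, adjusted p = 0.33). Emilin1 had a higher level here than in any other class, at 740, 645 and 773 CPM in UIR and 488, 626 and 498 CPM in UUO. It was the only one of the 10 with every UUO library below every UIR library, by −0.44 on the log2 scale (adjusted p = 0.366). Fbn1 (300, 397 and 431 CPM against 360, 485 and 477 CPM), Fbln1 (347–471 CPM against 319–541 CPM) and Loxl1 (242–293 CPM against 287–341 CPM) differed by 0.20, 0.04 and 0.26. Fbln2 was at 110–140 CPM in UIR and 132, 151 and 425 CPM in UUO (0.84, adjusted p = 0.366), and Fbln5 at 323, 336 and 561 CPM and 766, 592 and 314 CPM (0.43). Over the whole stromal pool the same contrast called the same 2 genes, Lox by 1.32 and Mfap4 by 2.08, where 1.51% of genes were called and 0.789% called higher, with 6 at an unadjusted p under 0.05 and 2 by DESeq2. The count was again 4 without UUO 2, and both counts also rose with every gene tested. They fell in other alternatives. At a stricter doublet rate, with fewer cells kept, none of the 10 genes was called in the stromal pool. In Fibro 1 and Fibro 2 together 1 was called at that rate. When cells were clustered more finely, 1 was called in the stromal pool.

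The 3 Fibro 1 cells of control 1, with 20366 UMIs in sum, held 39 UMIs of Mfap4 (1915 CPM), 31 of Mfap5 (1522 CPM), 17 of Fbln1 (835 CPM), 17 of Loxl1 (835 CPM), 9 of Fbn1 (442 CPM) and 5 of Emilin1 (246 CPM). Eln and Lox had 2 UMIs each, Fbln5 had 1 and Fbln2 had 0. Thus 9 of the 10 genes were present in these control cells, and 3 cells of 1 library allow no test.

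Fibro 1 was not uniform in these genes, as its sub-clusters showed. The members were left out of the genes used for clustering. Cells of a sub-cluster with 171 UIR and 106 UUO cells had Emilin1 at 875 and 746 CPM, Fbln5 at 619 and 719 CPM, Fbn1 at 458 and 411 CPM and Fbln1 at 507 and 431 CPM. A sub-cluster marked by Cxcl14 (75 and 27 cells) had little Eln (38.5 and 32.2 CPM) and Fbln5 (27.1 and 120 CPM) but carried Fbln2 (257 and 371 CPM) and Mfap5 (642 and 380 CPM). In a sub-cluster of 25 UIR and 72 UUO cells Eln was at 83.9 and 631 CPM and Mfap5 at 1144 and 1500 CPM, and 55 of the 72 UUO cells were from 1 library. Another, with 63 UUO cells of which 41 came from 1 library, had Fbln1 at 1276 CPM, Mfap4 at 1198 CPM, Mfap5 at 1528 CPM, Fbln2 at 619 CPM, Lox at 522 CPM and Emilin1 at 145 CPM. Elastin and the microfibril glycoproteins were therefore high in sub-clusters to which single UUO libraries gave most cells, while Emilin1 was high elsewhere. Median UMIs per Fibro 1 cell were 7599 in UIR and 2992 in UUO.

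Fibro 2, the contractile class, carried elastin and crosslinking enzymes with few fibulins. Eln was at 76.2, 106 and 86.7 CPM in UIR and 180, 78.1 and 179 CPM in UUO (log2 difference 0.66 ± 0.26, adjusted p = 0.502). Lox was at 76.2, 36.6 and 63.1 CPM in UIR and 51.4, 109 and 121 CPM in UUO (0.50, adjusted p = 0.793). The UIR and UUO libraries overlapped for both genes. Emilin1 was at 164–210 CPM in UIR and 170–300 CPM in UUO, and Loxl1 at 17.4–35.7 CPM and 5.26–37.7 CPM. Of 5 genes tested between UUO and UIR edgeR called 0, with 1 at an unadjusted p under 0.05 and 0 by DESeq2, where 0.796% of genes were called.

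The cluster without a name held 38, 126 and 112 cells in UIR, 50, 53 and 8 cells in UUO and 17 cells in all controls, and among the class lists its highest markers were those of frTECs, tubular cells that fail to repair. Its leading genes were Igfbp2, Ankrd1, Wnt16, Tnc and Tagln. Smooth muscle genes were present (Tagln at 3975 and 4361 CPM, Acta2 at 1207 and 1377 CPM in UIR and UUO) beside frTEC markers (Cp at 1463 and 1435 CPM, Vcam1 at 532 and 585 CPM), while Pdgfra and Dpt were at 0. Eln was at 470, 290 and 252 CPM in UIR and 309, 548 and 285 CPM in UUO, found in 134 of 276 and 62 of 111 cells. Loxl1 was at 276, 225 and 264 CPM in UIR and 309, 303 and 217 CPM in UUO, and Fbn1 at 141, 187 and 236 CPM and 171, 170 and 131 CPM. In UIR every Eln value here lay above every Fibro 1 value, while Fbn1 lay below Fibro 1 in every library of either injury. Lox was at 28.8–47.7 CPM in UIR and 20.7–114 CPM in UUO, and Emilin1 at 12.1–32.9 CPM and 16.0–38.5 CPM. The 17 control cells had Loxl1 at 137 CPM and Eln at 24.9 CPM. With control in no pool of 10 cells, no control comparison was made.

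In endothelial cells, the main holders of elastin in control, Eln was lower after both injuries. In their pools (112–167 cells per control, 449–598 per UIR and 509–716 per UUO library) Eln was at 197, 282, 151, 152 and 264 CPM in controls 1 to 5, at 69.4, 104 and 88.9 CPM in UIR and at 92.6, 99.6 and 101 CPM in UUO. It fell by 1.30 ± 0.19 on the log2 scale in UIR (adjusted p = 4.2e-04) and by 1.19 ± 0.18 in UUO (adjusted p = 1.2e-04), and every injured library lay below every control. Fbln5 went from 230–370 CPM in control to 209, 228 and 296 CPM in UIR and 214, 206 and 200 CPM in UUO. Fbln2 went from 162–259 CPM to 145, 185 and 227 CPM and 120, 157 and 140 CPM. Both fell in UUO, Fbln5 by 0.68 ± 0.15 (adjusted p = 0.00332) and Fbln2 by 0.67 ± 0.17 (adjusted p = 0.00979). With fewer cells kept by a stricter doublet rate, these 2 calls were lost (adjusted p = 0.175 and 0.25). Of 6 genes tested, 1 was called in UIR and 3 in UUO, where 2.05% and 12.9% of genes were called and 0.826% and 6.75% were called lower. Medians over the 6 genes were −0.30 and −0.68, beside 0.00 and 0.01 over all genes. Fbn1 in UUO (−0.44, adjusted p = 0.268) and Lox (−1.37 ± 0.57, adjusted p = 0.318 in UIR) did not pass, and Emilin1 differed by 0.28 and 0.30. Between UUO and UIR edgeR called 0 of the 6, with 1 at an unadjusted p under 0.05 and 0 by DESeq2, where 2.77% of genes were called. The share of arterial cells among endothelial cells was 25.4–31.7% in control, 19.9–24.1% in UIR and 15.4–17.1% in UUO, so the pools also differed in make-up, and the part of this in the pooled falls was not tested. The classes below were therefore compared singly.

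In arterial endothelium, named from Sox17, Gja5 and Efnb2, the fall of Eln was found within the class. Eln was at 474, 662, 465, 311 and 521 CPM in controls 1 to 5 (487 ± 126, SD, n = 5), at 200, 253 and 177 CPM in UIR (210 ± 38.5, n = 3) and at 263, 341 and 286 CPM in UUO (297 ± 40.4, n = 3). It fell by 1.27 ± 0.19 in UIR (adjusted p = 1.2e-04), where 1.58% of genes were called, and by 0.77 ± 0.18 in UUO (adjusted p = 0.00837), where 4.87% were called. UIR lay wholly below control, while UUO 2 exceeded control 4. At the stricter doublet rate, which cut the control pools from 34–45 to 13–35 cells, neither fall was called (−0.84, adjusted p = 0.206 and −0.37, adjusted p = 0.615). UUO and UIR differed by 0.50 in Eln (adjusted p = 0.492), and 0 of 5 genes were called by edgeR in that contrast, with 2 at an unadjusted p under 0.05 and 0 by DESeq2, where 0.553% of genes were called. The fibulins did not move in the same way: Fbln2 was at 509, 674, 627, 417 and 508 CPM in control, 477, 555 and 516 CPM in UIR and 493, 565 and 486 CPM in UUO, with differences of −0.13 and −0.14 that were not called. Fbln5 was at 523–1170 CPM in control, 658–671 CPM in UIR and 585–751 CPM in UUO (−0.34 and −0.28, not called), and Fbn1 at 51.2–109 CPM, 76.1–92.1 CPM and 86.7–96.3 CPM. Emilin1 was at 28.2–47.5 CPM in control and 59.6–70.1 CPM in UUO, without overlap, but its difference of 0.68 ± 0.23 did not pass (adjusted p = 0.0996). Lox in these cells was at 0–30.3 CPM in control, 5.58–8.01 CPM in UIR and 2.83–14.1 CPM in UUO. Eln was thus the single called gene of the 5 tested in this class. An Eln UMI was found in 59.4% of control, 49.9% of UIR and 53.5% of UUO arterial cells, and in 27.5%, 19.0% and 20.5% after each cell was thinned to 1000 UMIs.

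Much of the arterial Eln was in a small sub-cluster led by Jag1, Mgp and Fbln2, where it was at 906–2342 CPM in the controls (7–11 cells each), 393–537 CPM in UIR and 617–884 CPM in UUO. In the larger arterial sub-cluster it was at 156–268 CPM in control, 103–178 CPM in UIR and 96.3–231 CPM in UUO. Control libraries were highest in both, with overlap in the larger sub-cluster alone.

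In glomerular endothelium, the fenestrated capillaries of the filter, Eln was lower and Fbln2 higher after UUO. Eln was at 42.1, 72.7, 50.2, 47.6 and 49.5 CPM in controls 1 to 5, at 11.5, 45.6 and 13.1 CPM in UIR and at 15.7, 18.8 and 14.2 CPM in UUO. It fell by 1.77 ± 0.34 in UUO (adjusted p = 4.0e-04), where 10.1% of genes were called, and by 1.29 ± 0.36 in UIR (adjusted p = 0.0487), where 2.62% were called. UIR 2 alone reached the control range, and without it the UIR value was −2.16. That UIR call was lost in 16 alternatives, DESeq2 among them (−1.25, adjusted p = 0.0563). Fbln2 was at 3.83, 15.8, 5.58, 0 and 0 CPM in control, 16.8, 22.1 and 9.85 CPM in UIR and 13.4, 23.3 and 29.5 CPM in UUO, and rose by 1.81 ± 0.54 in UUO (adjusted p = 0.0279), a call lost in 11 alternatives, with a value of 2.80 without control 2. Empty droplets held Fbln2 at 14.0–23.5 CPM in UUO and 0.326–1.15 CPM in control, about the glomerular level in UUO. After subtraction of that background profile the UUO value of Fbln2 was 1.77 and no longer called (adjusted p = 0.0520), and the Eln value in UIR was −1.29 and no longer called (adjusted p = 0.0994). In UIR the Fbln2 difference was 1.44 (adjusted p = 0.303). Emilin1 stood at 103–159 CPM in control, 113–158 CPM in UIR and 102–119 CPM in UUO (−0.43 in UUO, adjusted p = 0.119). Between the injuries edgeR called 0 of the 4 genes tested, with 2 at an unadjusted p under 0.05 and 0 by DESeq2, where 2.10% of genes were called.

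In peritubular capillary endothelium, Eln, Fbln5 and Emilin1 were higher after UUO. Eln was at 7.15, 24.8, 30.6, 26.8 and 13.5 CPM in controls 1 to 5, at 33.9, 38.7 and 34.1 CPM in UIR and at 83.4, 60.8 and 98.8 CPM in UUO. It rose by 2.19 ± 0.37 in UUO (adjusted p = 2.6e-05), where 10.5% of genes were called, and was 1.11 ± 0.42 higher in UIR without passing the test (adjusted p = 0.149), where 4.77% were called. Fbln5 was at 0–27.0 CPM in control, 10.5–20.7 CPM in UIR and 54.6, 51.7 and 47.2 CPM in UUO, a rise of 1.69 ± 0.40 in UUO (adjusted p = 0.00274). Without control 1 the Fbln5 value was 1.45 (adjusted p = 0.0545). Emilin1 was at 15.3–54.1 CPM in control, 186, 80.2 and 118 CPM in UIR and 95.6, 133 and 181 CPM in UUO, with rises of 1.48 ± 0.30 (adjusted p = 0.00121) and 1.54 ± 0.30 (adjusted p = 2.2e-04). The Eln and Fbln5 levels also differed between the injuries, by 1.08 ± 0.25 (adjusted p = 0.0121) and 1.67 ± 0.31 (adjusted p = 0.0012), where 1.45% of genes were called. The Eln difference was not called without UIR 1, UIR 2 or UIR 3 (1.04–1.17) or without UUO 3 (0.92, adjusted p = 0.102). Empty droplets of the UUO libraries held Eln at 51.4, 19.5 and 89.9 CPM in UUO 1 to 3, below the capillary cells of the same library in each case. They held Fbln5 at 56.7, 37.7 and 42.6 CPM, about the capillary level and above it in UUO 1, and Emilin1 at 20.1–32.3 CPM. Fibro 1 markers in these cells summed to 0–13.5 CPM in control, 14.3–22.3 CPM in UIR and 19.1–45.5 CPM in UUO. After the empty-droplet profile was subtracted, the UUO rises were 2.18 for Eln, 1.64 for Fbln5 and 1.54 for Emilin1, and all calls of this paragraph were kept. The share subtracted was the lowest that the markers of any other compartment gave, so some background can remain after it. The part of free RNA in these rises was therefore not tested by this step. The part of fibroblast RNA was not tested. Control and injured cells of the capillary and glomerular classes also lay in different sub-clusters, 7 in control against 0 and 10 after injury for capillaries, and 5 against 1, 4 and 6 for glomeruli.

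**Figure D4:**
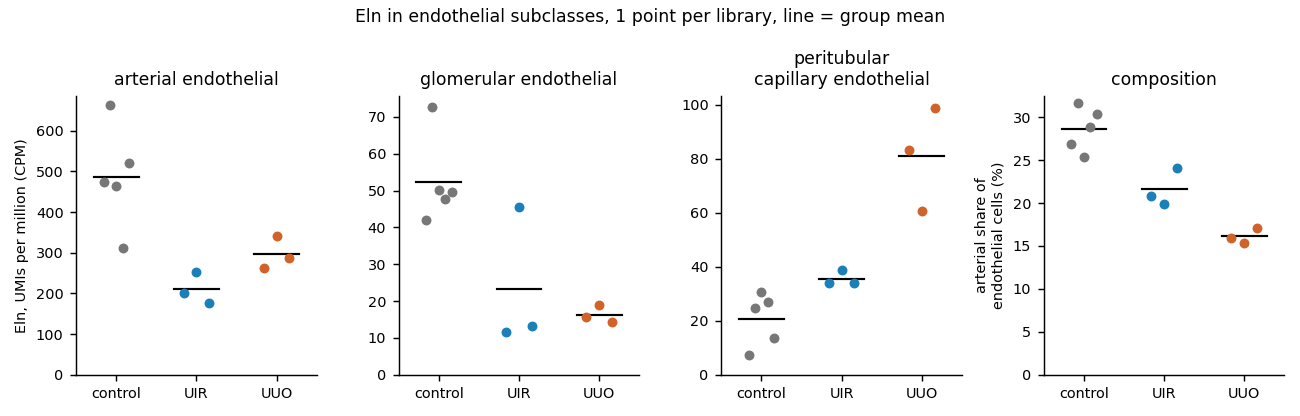
Eln in arterial, glomerular and capillary endothelium in CPM, and the arterial share of endothelial cells in percent, with 1 point per library and a bar at the group mean. Eln is lower after both injuries in arterial cells (means 487, 210 and 297 CPM) and higher in all 3 UUO libraries in capillary cells (60.8–98.8 CPM).

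Lymphatic endothelial cells reached 10 per library in UUO alone (36, 22 and 15 cells). There Fbln2 was at 25.0, 324 and 291 CPM, Fbln5 at 74.9, 237 and 291 CPM and Eln at 109, 40.1 and 222 CPM, with no group to compare them to.

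Tubular cells held few UMIs of any of the 10 genes, and most of the genes did not pass the filter on low counts there. Tested were Fbn1, Loxl1, Emilin1 and Fbln5 in proximal tubule (PT), Fbn1 and Loxl1 in loop of Henle and Fbln2 in distal tubule. Apart from Fbn1, Emilin1 and Fbln5 in PT cells, these had 1 or 2 control UMIs. They passed the filter through the injured pools, where they were high, so their calls are a description and not support. In PT cells Emilin1 (0.80 in UIR, adjusted p = 0.147) and Fbln5 (0.32, adjusted p = 0.67) did not pass. In PT cells after UIR (12, 69 and 30 UMIs in UIR 1 to 3) Loxl1 was at 2.73, 6.88 and 7.30 CPM, against 2 UMIs in the 5 controls (0.0830 CPM in control 1, 0.102 CPM in control 5 and 0 in the others). The UIR to control ratio was 137 (exact 95% interval 37.0–1144, adjusted p = 6.83e-07), where 28.9% of genes were called. All 3 UIR libraries were above all 5 controls. In UUO, Loxl1 in PT cells came from UUO 2 alone (18 UMIs in 5 cells, 8 of them in 1 cell), with 0 in UUO 1 and UUO 3. The PT pools of UUO 1 and UUO 3 held few UMIs, so these zeros say little. There 1 UMI was 21.2 CPM in UUO 1, and 2 UMIs were 7.09 CPM in UUO 3. The Loxl1 ratio of 233 (55.7–2067, adjusted p = 1.57e-05), where 36.8% of genes were called, therefore rests on 1 library. Without UUO 2 the log2 difference was −1.73 (adjusted p = 0.941), fitted with 0 UUO UMIs. Between UUO and UIR 4.72% of genes were called in PT cells.

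Within PT cells the Loxl1 UMIs were concentrated in a sub-cluster led by Havcr1, the injury marker KIM-1, and Ubd, which held 98 of the 111 UIR UMIs in 47 of its 446 UIR cells. Fibro 1 markers summed to 11.4 CPM in UIR PT cells with a Loxl1 UMI and 17.4 CPM in those without, but 10.2% of the former and 6.85% of the latter held such a marker, at median depths of 12791 and 3344 UMIs. The part of fibroblast RNA in the Loxl1 rise was not tested. The sub-cluster held 4 control cells. Fbn1 was at 1.14, 2.19 and 1.46 CPM in UIR PT cells and at 0–0.498 CPM in control, a rise of 3.2 ± 0.67 (adjusted p = 0.00175), and Fibro 1 markers were at 141 CPM in UIR PT cells with an Fbn1 UMI and 13.8 CPM in those without, and present in 50.0% and 6.46% of them. Of the 33 UIR Fbn1 UMIs, 11 came from 80 cells of a sub-cluster in which Fbn1 was at 104 CPM and which had been grouped with stroma in the sub-clustering. The part of fibroblast RNA in the Fbn1 rise was not tested. Empty droplets of UIR 1 to 3 held Fbn1 at 9.50, 4.99 and 6.73 CPM, above the PT cells of each library, and Loxl1 at 8.20, 4.54 and 6.33 CPM. In control libraries they held Fbn1 at 0.311–1.57 CPM. After subtraction of free RNA fewer UIR calls were made in the tubular classes. A Loxl1 UMI was found in 0.0351% of control, 2.71% of UIR and 2.46% of UUO PT cells, against 0, 0.0961% and 0.308% of T and NK cells, which should lack it. At 1000 UMIs per cell the PT shares were 0, 0.457% and 0.

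In loop of Henle cells both Fbn1 and Loxl1 were called higher after UUO, against 2 and 1 control UMIs. Fbn1 was at 0 CPM in controls 1 to 4 and 4.71 CPM in control 5, at 3.51, 3.52 and 2.78 CPM in UIR and at 7.69, 11.8 and 5.83 CPM in UUO. From 2 control and 122 UUO UMIs the ratio was 8.87 (exact interval 2.40–74.1, adjusted p = 0.00729), where 36.5% of genes were called, and in UIR it was 3.17 (0.852–26.6, adjusted p = 0.281), where 31.4% were called. UUO was above UIR by 1.43 ± 0.30 on the log2 scale (adjusted p = 0.00937), where 2.04% of genes were called, and without UIR 3 by 1.28 (adjusted p = 0.0702). Loxl1 was at 1.71 CPM in control 1 and 0 in the others, at 3.25, 2.87 and 6.22 CPM in UIR and at 9.38, 4.91 and 8.02 CPM in UUO. From 1 control and 99 UUO UMIs the ratio was 14.4 (2.52–574, adjusted p = 0.00835), and in UIR it was 8.61 (1.52–343, adjusted p = 0.0677). All UUO libraries exceeded all controls for both genes. The ratios rest on 1 control library each, since without control 5 for Fbn1 and without control 1 for Loxl1 no control UMI remained.

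These UMIs were again concentrated. Of the UUO loop of Henle UMIs, 88 of 122 for Fbn1 and 92 of 99 for Loxl1 were in a sub-cluster of 412 cells led by Psca, Mmp7 and Slurp1, in 51 and 62 cells. Fibro 1 markers in UUO cells with and without an Fbn1 UMI were at 9.12 and 12.4 CPM and present in 23.6% and 18.1% of cells, at median depths of 22526 and 14172 UMIs. With and without a Loxl1 UMI they were at 14.3 and 11.4 CPM and present in 30.9% and 17.3% of cells, at 19265 and 14390 UMIs. The part of fibroblast RNA in these values was not tested. Empty droplets of UUO 1 to 3 held Fbn1 at 42.9, 14.0 and 27.5 CPM and Loxl1 at 24.6, 12.3 and 22.8 CPM. Both lay above the loop of Henle cells of the same library in each case. Control and injured cells lay in different sub-clusters here too, since the sub-clusters that held 142 and 142 control cells held 3 and 4 UUO cells. Fbn1 was found in 0.350%, 5.02% and 10.2% of control, UIR and UUO cells, with median depths of 5010, 12733 and 14653 UMIs, against 0, 0.192% and 0.308% of T and NK cells at 4321, 3676 and 4543 UMIs. Thinned to 1000 UMIs, the loop of Henle shares were 0, 0.326% and 0.564% for Fbn1 and 0, 0.489% and 0.846% for Loxl1.

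In distal tubule cells Fbln2 was at 0.994 CPM in control 1 and 0 in the others, at 0, 6.42 and 1.38 CPM in UIR and at 2.55, 23.1 and 23.1 CPM in UUO. From 1 control and 112 UUO UMIs the ratio was 60.4 (exact interval 10.6–2408, adjusted p = 0.0010), where 45.3% of genes were called, and in UIR it was 7.91 (1.2–334, adjusted p = 0.300), where 35.5% were called. UUO 2 and UUO 3 stood above all other libraries, while UUO 1 lay within the UIR range. Without control 1 no control UMI remained. UUO exceeded UIR by 2.71 ± 0.65 (adjusted p = 0.0158), where 5.24% of genes were called, a value of 4.36 without UIR 2, and not called without UIR 1 (2.13, adjusted p = 0.0770) or UIR 3 (2.37, adjusted p = 0.0508). The 112 UMIs were in 23 of 268 cells, 18 of them in 1 cell. Fibro 1 markers were at 5.98 CPM in the cells with Fbln2 and 14.9 CPM in those without, and present in 26.1% and 22.0% of them, at median depths of 34830 and 15352 UMIs. The part of fibroblast RNA was not tested. All 112 UMIs lay in a sub-cluster of 258 UUO cells that held 1 control cell, while control cells lay in sub-clusters with 215 and 87 of them. Fbln2 was found in 8.58% of UUO distal tubule cells against 0.308% of T and NK cells. None of the 10 genes passed the filter in a class that met the frTEC marker list but was led by Slc14a2, Bst1 and Aqp1, genes of the thin limb, or in principal and intercalated collecting duct cells. The cells richest in the frTEC markers Cp and Vcam1 were those of the unnamed cluster. In these 3 classes UIR against control called 6.41%, 13.2% and 13.0% of genes, UUO against control 5.96%, 32.8% and 24.7%, and UUO against UIR 0.102%, 7.83% and 1.42%.

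**Figure D5:**
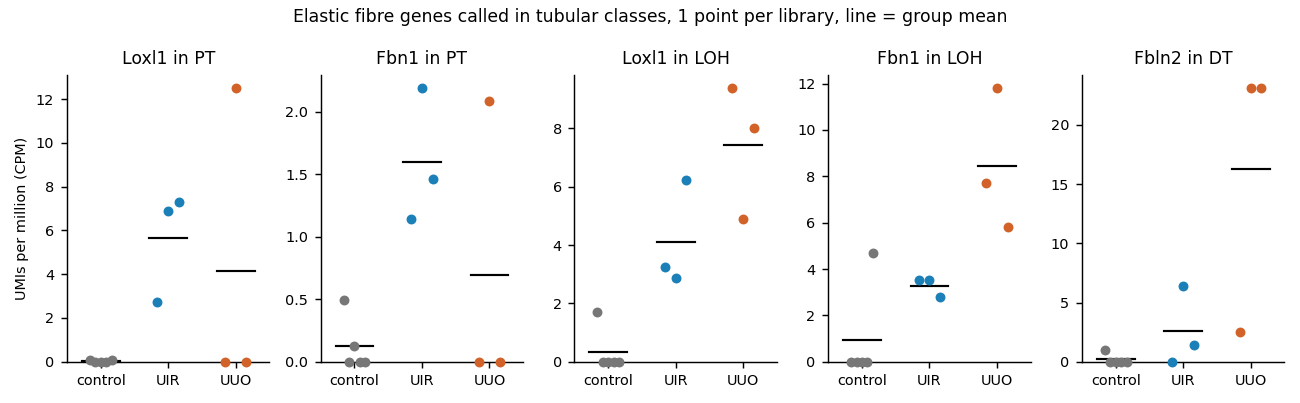
Loxl1 and Fbn1 in proximal tubule (PT) and loop of Henle (LOH) and Fbln2 in distal tubule (DT), in CPM, with 1 point per library and a bar at the group mean. Loxl1 in PT cells is above every control in all 3 UIR libraries (2.73–7.30 CPM) but in UUO comes from 1 library at 12.5 CPM. The PT pools of the other UUO libraries held few UMIs.

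Other genes of the pathway were counted from 3 lists chosen with earlier results known. Of 13 further microfibril and assembly genes tested in stroma, 11 were higher after each injury, where 11.1% of all genes were called higher in UIR and 10.7% in UUO. As for the 10 genes, this sets a mixture of classes against Fibro 3. The median log2 fold change over all genes was 0.16 and 0.15. The named genes of this list had 0 UMIs in the 3 control pools. They passed the filter on low counts only through the injured pools, so the count of 11 is a description and not support. With every stromal cell counted, Ltbp2, a fibrillin-binding protein, was at 2.33 CPM in control, 274 CPM in UIR and 127 CPM in UUO, Thsd4 at 2.33, 112 and 74.9 CPM, Adamtsl2 at 27.9, 59.8 and 81.0 CPM, and Efemp1, which encodes fibulin-3, at 2.33, 29.1 and 53.2 CPM. Between the injuries Ltbp2 was lower in UUO, by −1.10 ± 0.22 in stroma (adjusted p = 0.0172) and by −1.23 ± 0.23 in Fibro 1 (adjusted p = 0.00833). Of 12 further crosslinking partners and matrix genes tested in stroma, 5 were higher in UIR and 7 in UUO, against the same 11.1% and 10.7% of all genes, with list medians of 1.16 and 1.74. Fibronectin (Fn1), with 0 UMIs in the control pools, was at 18.6, 656 and 1086 CPM with every stromal cell counted. The ratio to the control pools was 49.8 (exact interval 8.90–1968) and 42.4 (7.58–1678) for the transglutaminase Tgm2 and 14.6 (4.96–70.9) and 17.6 (5.98–85.4) for the lysyl oxidase relative Loxl2. Few or no UMIs of Fn1, Tgm2 and Loxl2 lay in the control pools, and these genes passed the filter only through the injured pools. The calls and medians of this list are therefore also a description and not support. Plod1, a lysyl hydroxylase, rose by 1.35 ± 0.40 in UIR (adjusted p = 0.0239). Periostin (Postn), a matricellular protein, rose by 3.12 ± 0.85 in UUO (adjusted p = 0.0155) and was higher in UUO than UIR Fibro 1 cells, by 2.81 ± 0.43 (adjusted p = 0.00217).

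Among 8 genes of elastin and microfibril breakdown tested in stroma, 3 were higher in UIR and 5 in UUO, and 1 was lower in each, where 16.9% and 16.1% of all genes were called. The list medians were 1.68 and 1.69. As for the other lists, this sets a mixture of classes against Fibro 3. Ctsk and Ctss had few UMIs in the control pools and passed the filter on low counts only through the injured pools. The calls and medians of this list are therefore a description and not support. Among the cathepsins, the ratio for Ctsk was 17.8 (exact interval 6.07–86.6) and 30.4 (10.4–148), Ctsl rose by 2.47 ± 0.26 and 2.86 ± 0.26, and the ratio for Ctss was 10.3 (1.81–409) in UUO. Over all kept cells Ctss averaged 62.4 CPM in control and 876 CPM in UUO. The part of macrophage RNA in its stromal ratio was not tested. Mmp14, a membrane-bound metalloproteinase, rose by 1.40 ± 0.25 in UIR. Neu1, a lysosomal sialidase that takes part in elastin assembly and signalling, was lower by −1.94 ± 0.33 and −1.75 ± 0.32. Over all kept cells Neu1 averaged 212 CPM in control, 76.0 CPM in UIR and 51.4 CPM in UUO. The part of RNA from other cells in its stromal fall was not tested. Mmp2 was higher in UUO than in UIR stroma by 0.98 ± 0.23 (adjusted p = 0.0404). Within Fibro 3 alone, the log2 differences in UIR and UUO were 0.46 and −0.01 for Ctsl and −0.45 and −0.49 for Neu1. That of Mmp14 in UIR was −0.20, and the UIR values rest on 1 library. The part of the class mixture in the stromal differences was not tested. None of the genes of these 3 lists passed in Fibro 3, a class in which few of all genes were called, so this is no result about the lists.

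In endothelium 2 of 9 tested microfibril genes changed in either injury, both downward, where 0.826% of all genes were called lower in UIR and 6.75% in UUO. These pools also differed in their arterial share, 25.4–31.7% in control, 19.9–24.1% in UIR and 15.4–17.1% in UUO, whose part was not tested. The list medians were 0.09 and −0.35. Ltbp1 was lower by −1.33 ± 0.23 in UIR (adjusted p = 0.00242) and −1.76 ± 0.23 in UUO (adjusted p = 2.32e-05), and Ltbp4, which is needed for elastic fibre assembly, by −0.79 ± 0.14 (adjusted p = 0.00341) and −0.89 ± 0.14 (adjusted p = 1.93e-04). By class, Ltbp4 was lower in arterial cells (798 CPM in control, 456 CPM in UIR and 519 CPM in UUO, adjusted p = 2.8e-04 and 0.00177) and in glomerular cells (224, 111 and 104 CPM, adjusted p = 0.00372 and 1.1e-04), while in capillary cells, at 335, 272 and 349 CPM, neither difference passed (adjusted p = 0.361 and 0.913). Pcolce2, an enhancer of procollagen processing, was lower by −1.79 ± 0.36 and −3.17 ± 0.39. In UUO the lysyl hydroxylases moved apart, Plod2 by −0.71 ± 0.17 and Plod1 by 0.67 ± 0.15. Mmp14 rose by 1.26 ± 0.21 in UUO and was higher in UUO than UIR by 1.10 ± 0.20. Ctss rose by 2.79 ± 0.44 and 3.18 ± 0.41, and macrophage markers in the same pools went from 1.52–9.33 CPM in control to 62.2–94.5 CPM in UIR and 75.4–131 CPM in UUO, whose part in the Ctss rise was not tested.

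Over the 37 means of a class in a group, the genes whose log2(CPM + 1) profile was most like that of Eln by Pearson's r were Sparcl1 (0.95), Scn7a (0.92), Gata6 (0.91), Fam198b (0.90) and Adamtsl1 (0.90), and those most like Lox were Egflam (0.93), Ogn (0.93), Cav3 (0.91), Kcnt2 (0.90) and Ptgis (0.90). The unnamed cluster, which held much of the injured Eln, was not among these classes, and endothelium was taken as a single class. These means share libraries and depth, and the values of r over 11930 genes are a description.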

How the data were processed

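Droplet-based 3′ libraries (10x Genomics, v3) were made by the authors from 11 kidney suspensions, and the deposited matrices hold raw UMI counts per gene and barcode, not normalised. The file headers name Cell Ranger 3.1.0 (the submitters' processing notes do too) and the build is mm10. The study's later steps, which removed ambient RNA and doublets, are not in these counts. The members and gene lists were chosen with earlier results of these data known.

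Cells were called again here per library. Barcodes passed with over 0.1 of the 99th percentile of the top 3000, or with 500 UMIs or more and a profile unlike the ambient RNA of ranks 45000–90000 (10000 simulations, FDR 0.01). Cells were dropped at over 30% mitochondrial or 5% haemoglobin UMIs or fewer than 200 genes, and the 7.5% with the highest doublet scores were removed. Clustering used 2000 variable genes without the members, lists and markers, 40 components (30 in sub-clusters), 20 neighbours and Leiden resolution 1 (Python 3.11.15, numpy 2.4.6, scipy 1.17.1, scikit-learn 1.9.0, leidenalg 0.10.2). Classes were named from fixed markers, so they need not equal the study's.

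Counts were summed per library and class of at least 10 cells and tested in edgeR 4.0.16 (R 4.3.3; filterByExpr, TMM, quasi-likelihood F-test, 3 groups in a single model), with Benjamini-Hochberg adjustment over all genes of the pool and a threshold of 0.05. The SE printed with an edgeR log2 fold change is its absolute value divided by the square root of F. It thus carries the same information as the p-value. DESeq2 1.42.0 was an alternative. A gene with 0 control UMIs was set against 3 counts over the group, and with 1–3 against an exact 95% interval. Named were all 10 members and, of the other lists, up to 4 called genes per list and contrast with the largest change. The labels name separate libraries only, so p-values measure the spread between these samples. No 2 libraries were alike within sampling noise. On simulated counts (UUO against control), 3-fold changes were recovered for 34 of 98 genes in stroma, 82 of 97 in endothelium, 68 of 90 in arterial cells and 70 of 95 in loop of Henle cells, from 10420, 10938, 8462 and 11302 genes. Every simulated gene had the same spread (dispersion 0.05), and only genes with an expected count of at least 10 in the median library were changed. The rates therefore do not give the power for scarcer or more variable genes, many of the 10 members among them.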

Additional observations from a re-analysis of the deposited data

Results flagged for a closer look

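Of 36 control groups of 5 libraries examined, 8 had a library far from the others by Dixon's 95% criterion. No chance rate is set beside this count. For Loxl1 and Fbn1 in loop of Henle and Fbln2 in distal tubule cells the high library held 1, 2 and 1 UMIs. With 0 in the other controls, the criterion is then met whatever the count. The Mfap4 and Mfap5 values of control 1 came largely from the same 3 Fibro 1 cells. Over all kept cells control 1 was high for Fbln1 (1.36 CPM, next 0.425 CPM), Mfap4 (2.15 CPM, next 0.0927 CPM) and Mfap5 (1.83 CPM, next 0.0760 CPM). It was also high for Fbn1 in PT cells (0.498 CPM, next 0.130 CPM), Loxl1 in loop of Henle cells (1.71 CPM, next 0) and Fbln2 in distal tubule cells (0.994 CPM, next 0). Control 2 was high for Eln in glomerular endothelium (72.7 CPM, next 50.2 CPM), and control 5 for Fbn1 in loop of Henle cells (4.71 CPM, next 0).

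The Eln differences had opposite signs in different endothelial classes, and in each case named here all 3 injured libraries lay beyond all 5 controls. In UIR its log2 difference was −1.27 in arterial and 1.11 in capillary endothelium, and in UUO −1.77 in glomerular and 2.19 in capillary endothelium. The capillary value in UIR was not called (adjusted p = 0.149), and neither was the arterial value at 15% doublets (−0.84, adjusted p = 0.206). Control and injured cells of the capillary and glomerular classes lay in different sub-clusters, and the difference between classes was not tested.

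Empty droplets, which the comparisons do not use, held more of the genes listed next after injury, with all injured libraries above all controls. In UUO the mean levels, with the highest control in parentheses, were 53.6 CPM for Eln (4.15), 28.1 CPM for Fbn1 (1.57), 25.4 CPM for Fbln1 (1.97), 17.5 CPM for Fbln2 (1.15) and 45.7 CPM for Fbln5 (19.2). They were 24.2 CPM for Mfap4 (1.14), 24.8 CPM for Mfap5 (1.14), 15.4 CPM for Lox (0.83), 19.9 CPM for Loxl1 (1.54) and 25.5 CPM for Emilin1 (3.76). In UIR they were 7.07 CPM for Fbn1, 6.84 CPM for Fbln1, 3.29 CPM for Fbln2, 2.37 CPM for Mfap4, 2.62 CPM for Mfap5, 2.55 CPM for Lox, 6.36 CPM for Loxl1 and 9.69 CPM for Emilin1.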

How the results depend on the processing

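Of 68 called results for the 10 genes, 31 were called in the same direction under every alternative, 34 lost the call with the direction kept under at least 1, and 5, 2 of them among the 34, changed direction, where the cause was not tested. With a 15% mitochondrial limit, which left 3691 control cells, the log2 difference over all kept cells was −0.44 for Eln in UIR, −0.27 for Fbln2 and −0.08 for Fbln5 in UUO. Mfap4 in UIR stroma was −0.50 at Leiden resolution 2, when control 1 entered with 10 stromal cells, and Loxl1 in UUO PT cells was −1.73 without UUO 2 (up to 7.07 without any other library, fitted over 2 control UMIs). Without UUO 2 no Loxl1 UMI was left in UUO PT cells, so that sign is not a measured fall. The shares of all genes called in each alternative are not given, so the counts that follow show only how the calls moved. Of the counts of called genes, the 3 of UUO against UIR over all kept cells became 0 at the 15% mitochondrial limit, 1 at 15% doublets and 0 with a replicate block, and 0–5 without 1 library. The 10 in stroma became 6 in UIR at resolution 2 and 6 without control set N (9–10 without 1 library), and 6 in UUO at resolution 2 (10 without any 1 library). The 2 of UUO against UIR in stroma became 5 with every gene tested, 0 at 15% doublets and 1 at resolution 2 (2–4 without 1 library), and the 2 in Fibro 1 and Fibro 2 became 5 and 1 with every gene and at 15% doublets (2–4). The 3 in UUO endothelium became 1 at 15% doublets. In endothelial classes the 3 in UIR became 1 with the block (2–3), and the 2 of UUO against UIR became 1 with DESeq2, at resolution 2 and with the block (1–2). In tubular classes the 2 in UIR became 1 at the 15% mitochondrial limit, at resolution 2, without each control set and after subtraction of free RNA (1–2). The 4 in UUO became 9 with every gene, 2 at the mitochondrial limit and 2 without control set N (1–5). The 2 of UUO against UIR became 1 with DESeq2, at 15% doublets, at resolution 2 and with the block (0–2). Libraries were treated as not paired by the numbers in their titles, whose meaning the labels do not give. The deviations of same-numbered libraries correlated at −0.09 to 0.17, and those of differently numbered ones at −0.05 to 0.19. These values cannot exclude shared days or runs, and the unnumbered control 1, UIR 1 and UUO 1 were not in them. The block fits therefore serve only as a check. Free RNA subtraction and resolution 2 were not run over all kept cells. On simulated counts few 1.5-fold changes were recovered: 1 of 102 genes in stroma, 8 of 103 in endothelium, 2 of 110 in arterial cells and 2 of 105 in loop of Henle cells. These rates too hold only for the spread and counts that were simulated.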

Other observations

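Podocytes, which were not among the classes compared, held Emilin1 at 36.4, 44.4, 51.6, 32.2 and 23.7 CPM in controls 1 to 5, at 122, 70.0 and 56 CPM in UIR and at 0, 81.9 and 103 CPM in UUO. Loxl1 in the same cells was at 1.18, 3.42, 11.1, 2.01 and 5.46 CPM in control, 20.4, 19.0 and 14.0 CPM in UIR and 0, 24.6 and 19.7 CPM in UUO. All UIR libraries were above all controls for both genes, and in UUO the same held for 2 of 3 libraries, with no UMI of either gene in UUO 1. These differences were not tested.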
